A study of Mus musculus with 12 samples.

Results

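Kit ligand, its receptor Kit and the proteases that mast cells store were followed across 2 kinds of mammary epithelium dissected from mice aged 5 weeks. Of 7 genes chosen for this theme, the array named 4, with 1 probe each, among 12913 genes: the ligand Kitl, the receptor Kit, the mast cell carboxypeptidase Cpa3 and the mast cell tryptase Tpsb2. The chymases Cma1 and Mcpt4 and the histamine-making enzyme Hdc had no probe under these symbols and were not analysed here. The genes were chosen by their mast cell role and with the log ratios of these same arrays in view, both against stroma and between the structures, so their values are given as a description, without a test.

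RNA was taken from microdissected terminal end buds, the growing tips of the ductal tree, on 6 arrays, and from mature ducts on another 6. Every array set the epithelial structure, in one dye, against distal stroma free of epithelium, in the other. All glands came from B-actin-GFP reporter mice, whose green fluorescence served to guide the dissection. The labels used here do not give a strain, name separate animals for the arrays or say whether the stroma was pooled, so any p-value measures the spread between arrays only, which may be technical. A value of 0 means equal signal in epithelium and stroma, and 1 means 2-fold more in epithelium where logarithms are to base 2, the usual base, which the labels do not state. The spots' brightness is not part of the values, so a ratio near 0 can also come from a gene that was too dim to measure on both sides.

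Kit ligand, also called stem cell factor, is a growth factor made in membrane-bound and shed forms by stromal, endothelial and epithelial cells. It binds Kit, a receptor tyrosine kinase on mast cells, melanocytes, germ cells and blood stem cells, and in the mammary gland on progenitor cells of the luminal layer. Mast cells depend on Kit for survival and recruitment, and they store tryptase, chymase and carboxypeptidase in granules with heparin and histamine. Mast cells lie in the connective tissue around mammary ducts and end buds.

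Kit ligand was below distal stroma in terminal end buds and above it in ducts. In terminal end buds Kitl had its lowest log2 ratio at -1.04, its median at -0.46 and its highest at 0.16, and in ducts these were 0.89, 1.30 and 1.63. The ranges did not overlap, and only terminal end bud replicate 5 lay above stroma in its group, while all 6 duct arrays did. The group means were -0.47 ± 0.38 (SD, n = 6) and 1.27 ± 0.24 (SD, n = 6). Ducts were thus 2.41-fold above stroma and, by the difference of 1.74 (SE 0.17), 3.34-fold above terminal end buds. Ranked by this difference Kitl stood at 25 of 12913 genes. On slides up to 193 alone, with 2 arrays in each group, the difference was 1.83, and on slides from 196 on, with 4 arrays in each, it was 1.70.

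Kit, the receptor, was above stroma in both structures. Its log2 ratios ran from 1.44 over a median of 1.66 to 1.996 in terminal end buds and from 1.08 over a median of 1.27 to 1.81 in ducts. The ranges overlapped, and all 12 arrays lay above stroma. The means were 1.66 ± 0.19 (SD, n = 6), or 3.16-fold, and 1.37 ± 0.28 (SD, n = 6), or 2.59-fold. The difference between the structures, 0.29 (SE 0.13) with terminal end buds higher, depended on scaling. It was 0.02 when the arrays were given a common spread and turned to -0.10 under quantile normalization, so its direction is not settled. Kit was thus above stroma in both structures, and Kitl in ducts.

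**Figure D1:**
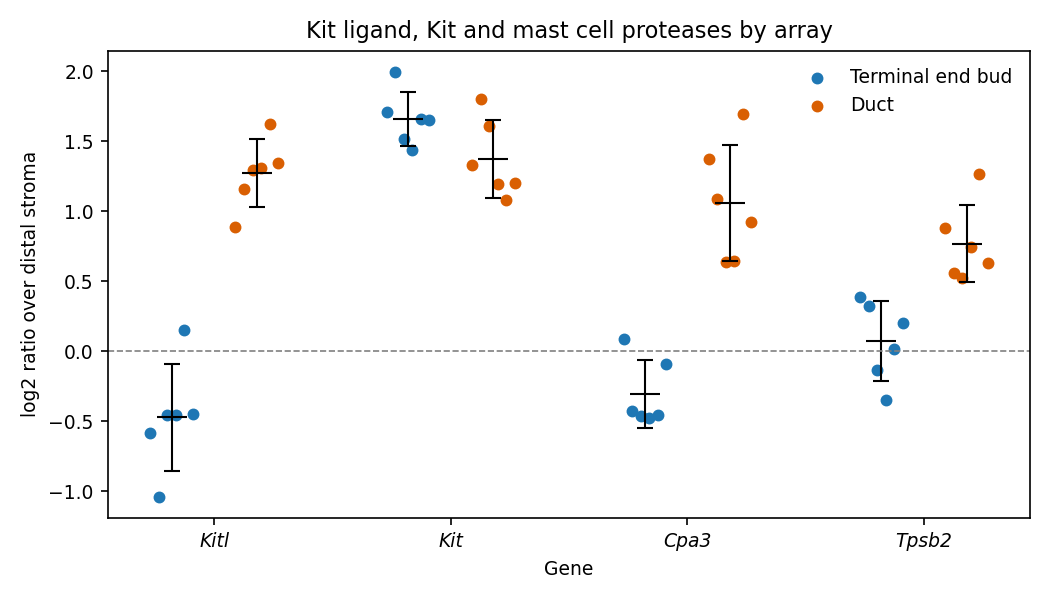
Log2 ratios over distal stroma (vertical axis) of Kitl, Kit, Cpa3 and Tpsb2 (horizontal axis), with a point for each of the 6 terminal end bud (blue) and 6 duct (orange) arrays and bars for mean and SD. Kitl, Cpa3 and Tpsb2 points of the ducts lie above all points of the terminal end buds, while those of Kit overlap.

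Cpa3, the carboxypeptidase of mast cell granules, had the same layout as Kitl. Its log2 ratios in terminal end buds ran from -0.48 over a median of -0.44 to 0.09, and in ducts from 0.64 over a median of 1.01 to 1.69. The ranges did not overlap, and duct replicates 1 and 5 were the highest arrays. The means were -0.30 ± 0.24 (SD, n = 6) and 1.06 ± 0.42 (SD, n = 6), a difference of 1.36 (SE 0.18) or 2.58-fold with ducts higher. It ranked at 65 of 12913 genes by that difference. The difference was 1.40 on slides up to 193 and 1.35 on later slides.

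Tpsb2, the tryptase also known as mouse mast cell protease 6, differed less. Terminal end bud arrays ran from -0.35 over a median of 0.11 to 0.39, on both sides of stroma, and duct arrays from 0.53 over a median of 0.69 to 1.27. The gap between the highest terminal end bud array and the lowest duct array was 0.14. The means were 0.07 ± 0.28 (SD, n = 6) and 0.77 ± 0.28 (SD, n = 6), a difference of 0.70 (SE 0.15) or 1.62-fold with ducts higher. That difference was 0.37 on slides up to 193 and 0.86 on later ones, so its size differed between the slides. Tryptases are close copies of each other, and the probe sequences were not used here, so how far the probe also reads Tpsab1 was not tested.

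In all, 3 of the 4 measured genes had duct arrays wholly above terminal end bud arrays, beside 5.79% of all 17589 probes. All 4 were above stroma on every duct array, beside 18% of all probes, and 1 of 4 on every terminal end bud array, beside 21.8%. These values were in view when the genes were chosen, so nothing is read from the counts. In tissue RNA, fewer mast cells and less protease RNA in each cell cannot be told apart.

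The sequence before the start of Cpa3 is shown because it is the mast cell gene with the larger shift, and that of Kit because Kit did not share the shift. RefSeq promoter windows of GRCm38.p6 were found for 6 of the 7 chosen genes, and Tpsb2 was the exception. Capitals mark matches, on either strand, to the GATA motif AGATAA, to the E-box CAGCTG or to the TATA box TATAAA. The GATA motif TGATAA was searched too. So was the E-box CATGTG. The bases are printed 5′ to 3′ on the gene's strand and stop at the earliest annotated start of the gene. Distances are counted from the reference start on which the promoter window was built. In Cpa3 the reference start lies downstream of the earliest start, so the TATAAA that begins 31 bases before the reference start is cut off.
Cpa3 (chr3:20242210-20242431, minus strand): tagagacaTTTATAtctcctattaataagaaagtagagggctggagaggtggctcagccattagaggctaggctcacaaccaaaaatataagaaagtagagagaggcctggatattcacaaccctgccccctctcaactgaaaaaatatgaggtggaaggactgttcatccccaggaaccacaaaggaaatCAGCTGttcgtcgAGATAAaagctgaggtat
Kit (chr5:75574737-75574986, plus strand): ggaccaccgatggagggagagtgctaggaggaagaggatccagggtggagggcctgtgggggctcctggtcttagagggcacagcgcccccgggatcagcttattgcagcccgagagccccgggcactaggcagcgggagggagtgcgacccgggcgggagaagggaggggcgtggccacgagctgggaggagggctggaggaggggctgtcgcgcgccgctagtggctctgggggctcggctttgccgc

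In Cpa3 the AGATAA begins 46 and the CAGCTG 59 bases before the reference start, not before the end of the printed bases. Kit had 2 windows, and the first, of 300 bases, held none of the 5 motifs. The window of Kitl held TATAAA alone, 25 bases before its start. The unmeasured Mcpt4 held TGATAA and TATAAA, 103 and 32 bases before its start, while the unmeasured Cma1 and Hdc held none of the motifs. Of all 32851 windows of that length, 11.2% held AGATAA, 9.05% TGATAA, 16.3% CAGCTG, 14.2% CATGTG and 13.6% TATAAA. A match describes letters only, and binding was not measured.

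Array by array, Kitl and the proteases separated together between the structures, while 6 arrays do not settle their relation within a structure. Pooling the 12 arrays would only restate the gap between the groups, so the relation is given within each group of 6, as a description. In ducts the correlation of Kitl with Cpa3 was r = 0.13 (Spearman rho = 0.09) and with Tpsb2 r = 0.41 (rho = 0.31). In terminal end buds it was r = -0.15 (rho = -0.26) with Cpa3 and r = -0.40 (rho = -0.49) with Tpsb2. Both genes of a pair come from the same hybridisation and share its reference and normalization.

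Single arrays decided these values. Without duct replicate 5, the highest in all 3 genes, the duct correlation of Kitl became r = -0.87 with Cpa3 and r = -0.67 with Tpsb2. Without duct replicate 1, the lowest in Kitl and the second in both proteases, it became r = 0.70 with Cpa3 and r = 0.92 with Tpsb2. In terminal end buds the array with the highest Kitl, replicate 5, was near the low end for Cpa3 at -0.46, and without it r with Cpa3 was 0.16. Without the 2 arrays farthest from the Kitl median, the values were -0.61 for Cpa3 and 0.40 for Tpsb2 in ducts, and -0.71 and -0.67 in terminal end buds.

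**Figure D2:**
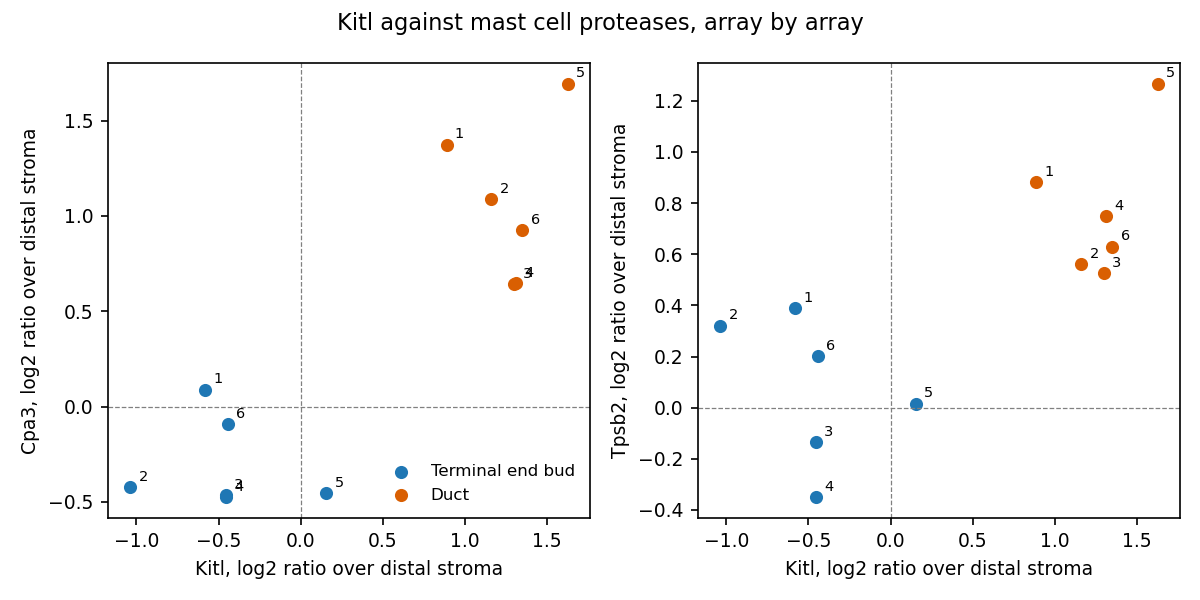
Kitl (horizontal axes) against Cpa3 (left) and Tpsb2 (right), each as log2 ratio over distal stroma, with a point per array labelled by replicate number, terminal end buds in blue and ducts in orange. The groups lie apart on both axes, with no steady slope inside either group.

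The proteases followed each other more closely than they followed Kitl. Cpa3 and Tpsb2 correlated at r = 0.69 (rho = 0.94, n = 6) in terminal end buds and at r = 0.82 (rho = 0.77, n = 6) in ducts. Terminal end bud replicate 1 was the highest of its group in both genes, and replicate 4 the lowest. Duct replicate 5 was the highest in both at 1.69 and 1.27, replicate 1 came next, and replicate 3 was the lowest. In ducts the relation rested on replicates 5 and 1, and without them r was -0.31, while in terminal end buds it was 0.98 without replicates 1 and 6.

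Kitl and Kit had negative correlations within each structure, whose values changed when single arrays were left out. The correlation of Kitl with Kit was r = -0.55 (rho = -0.49, n = 6) in terminal end buds and r = -0.44 (rho = -0.77, n = 6) in ducts. Terminal end bud replicate 2 had the lowest Kitl, -1.04, and the highest Kit, 1.996, and duct replicate 5 had the highest Kitl, 1.63, and the lowest Kit, 1.08. Without the 2 arrays farthest from the Kitl median the values were -0.63 and -0.85. Without terminal end bud replicate 2 alone r turned to 0.19, and without replicate 5 alone it was -0.92. Without duct replicate 5 alone it was -0.13, and without duct replicate 1 alone it was -0.79. The values thus depended on which array was left out, and 6 arrays do not settle the relation.

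Other mast cell genes went different ways. Of 26 listed genes 19 were measured and tested with limma, with Benjamini-Hochberg adjustment over all probes. Against stroma, 3 rose and 1 fell in ducts, and 2 rose and 4 fell in terminal end buds. Ducts were higher than terminal end buds in 3 of them, Tph1, Mcpt2 and Srgn, and lower in 1, Mitf. Under quantile normalization the calls of Srgn (-0.36, adjusted p = 0.0887) and Mitf (0.23, adjusted p = 0.0974) were lost. The background was 16% of probes higher and 12.2% lower in ducts against stroma, 23.2% and 20.4% in terminal end buds, and, between the structures, 8.32% with terminal end buds higher and 10.4% with ducts higher. The list's median ratio was -0.02 in terminal end buds and -0.01 in ducts, beside 0.01 over all 12913 genes in each.

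Mcpt2, a protease typical of mucosal mast cells, followed the pattern of Cpa3. Its log2 ratios ran from -0.27 to 0.52 in terminal end buds and from 0.50 to 1.65 in ducts, so the ranges met at a single pair of arrays. It rose in ducts against stroma by 0.87 (SE 0.13, adjusted p = 0.000167) and was at 0.16 in terminal end buds (adjusted p = 0.351). The structures differed by -0.71 (SE 0.18, adjusted p = 0.0134, limma). That call was lost on slides up to 193 alone (-0.51, adjusted p = 0.171) and on later slides alone (-0.81, adjusted p = 0.0566). Duct replicate 5 was again the highest array. Mcpt2 correlated with Cpa3 at r = 0.82 (rho = 0.94, n = 6) in terminal end buds and r = 0.87 (rho = 0.71, n = 6) in ducts, and the latter was -0.08 without duct replicates 5 and 1. Mast cell chymases are close relatives, and how far this probe reads others of them was not tested.

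Tpsab1, the sister tryptase of Tpsb2, was higher than stroma in ducts by 0.43 (SE 0.13, adjusted p = 0.0282) and stood at 0.11 in terminal end buds (adjusted p = 0.558). Its duct arrays ran from -0.13 to 1.07, with replicate 5 once more the highest. The call in ducts was lost without duct replicate 4 (0.40, adjusted p = 0.0734), 5 (0.30, adjusted p = 0.109) or 6 (0.34, adjusted p = 0.1), and with the duct arrays fitted alone (adjusted p = 0.0707). The difference between the structures was -0.32 (SE 0.19, adjusted p = 0.3), with 0.14 when the slides up to 193 were taken by themselves.

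Tph1, which starts serotonin synthesis in mast cells and also in mammary epithelium, rose in both structures. It was higher than stroma by 0.92 (SE 0.19) in terminal end buds and by 2.48 (SE 0.19) in ducts, with a difference of -1.56 (SE 0.27, adjusted p = 0.000975, limma). All 6 duct arrays, at 1.55 to 3.26, were above the terminal end bud arrays, at 0.64 to 1.10. Duct replicate 5, the highest array for the proteases, was the lowest for Tph1.

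Apart from Kit and Mitf, the receptors and regulators that define mast cells were near stroma or below it. Ms4a2, the beta chain of the IgE receptor, was at -0.02 in terminal end buds and 0.01 in ducts (adjusted p = 0.819 and 0.928). Fcer1a, its alpha chain, fell by 0.23 (SE 0.06, adjusted p = 0.00987) in terminal end buds and was at -0.07 in ducts. Gata2, a transcription factor of mast cells and of endothelium, fell by 0.34 in terminal end buds (adjusted p = 0.0156) and was, without replicate 4 of that group at -0.22 (adjusted p = 0.0576). Mitf, a factor of mast cells and melanocytes, rose by 0.42 (SE 0.07, adjusted p = 0.000117) in terminal end buds. Its difference from ducts, 0.29 (adjusted p = 0.046), was lost without any 1 of terminal end bud replicates 3 to 6 or duct replicates 1, 2, 3, 5 or 6 (0.24 to 0.30, adjusted p = 0.0676 to 0.0958), and with a common spread of the arrays (0.26, adjusted p = 0.0855).

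Serglycin and a leukotriene enzyme were below stroma in the end buds. Srgn, the proteoglycan core that packs granules in mast cells and many other blood and vessel cells, fell by 1.03 (SE 0.08, adjusted p = 1.35e-07) there and by 0.37 (SE 0.08, adjusted p = 0.00325) in ducts. Ltc4s, the leukotriene C4 synthase, fell by 0.96 (SE 0.14, adjusted p = 6e-05) in terminal end buds. It was at -0.40 in ducts, close to the threshold (adjusted p = 0.0507), and passed it in 11 alternatives, at adjusted p = 0.0201 without duct replicate 4 for one.

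**Figure D3:**
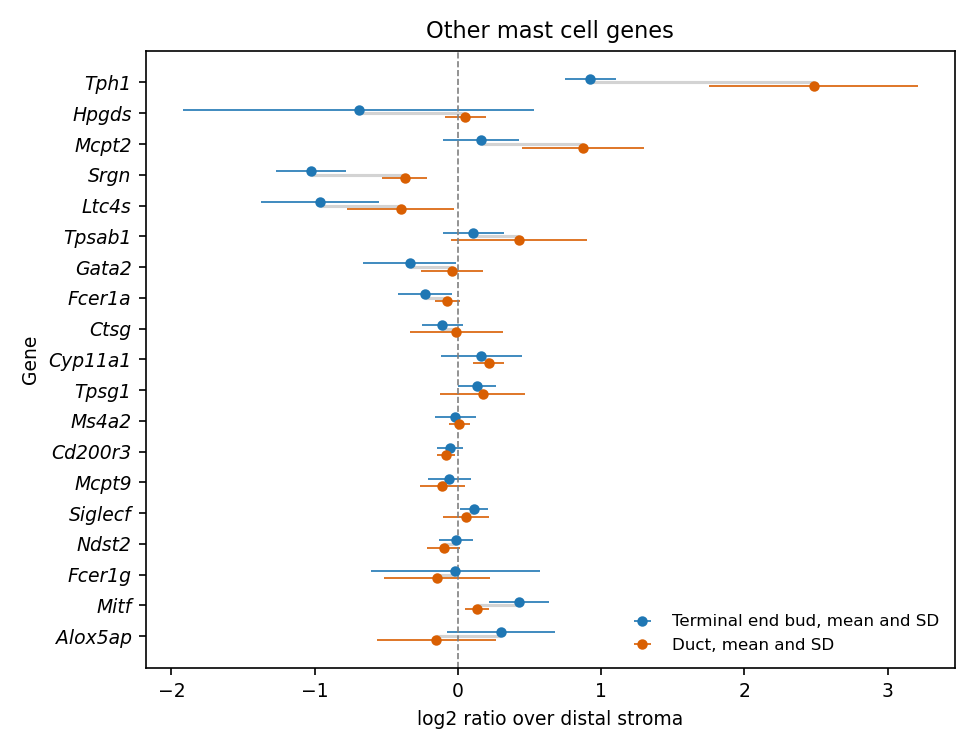
Mean and SD (n = 6 arrays) of the log2 ratio over distal stroma (horizontal axis) for 19 other mast cell genes (vertical axis), terminal end buds in blue and ducts in orange, ordered by the difference between them. Tph1 and Mcpt2 lie higher in ducts, while Ms4a2 and most genes in the middle lie close to 0 in both.

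Carriers of the signal below Kit were mixed. Of 41 measured genes of Kit signalling, 18 rose in terminal end buds while 7 fell, and 12 rose and 2 fell in ducts against stroma (limma). Of all probes, 23.2% rose and 20.4% fell in terminal end buds, and 16% and 12.2% in ducts. The counts that rose lay above these shares and those that fell lay below them. The list's median was 0.20 and 0.11. Terminal end buds exceeded ducts in 10 and the reverse held in 4, beside 8.32% and 10.4% of all probes. The 10 lay above its share and the 4 near it. Without terminal end bud replicate 2, 4 or 6 or without duct replicate 1 or 6, the 10 became 6. Most of these proteins also serve other receptors.

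Gab1, an adaptor, rose by 0.91 (SE 0.07) in terminal end buds and 0.63 (SE 0.07) in ducts, and the phospholipase Plcg2 by 0.81 (SE 0.10) and 0.68 (SE 0.10). The kinase Src rose by 1.09 (SE 0.10) in terminal end buds and was at 0.20 in ducts, a difference of 0.88 (adjusted p = 0.000493). Sh2b3, an adaptor that dampens Kit, rose by 0.56 (SE 0.05) in terminal end buds and was at -0.14 in ducts, a difference of 0.70 (adjusted p = 2.12e-05). Pik3r1, the regulatory subunit of the lipid kinase that Kit recruits, went in opposite directions. It fell by 0.76 (SE 0.06) in terminal end buds and rose by 0.31 (SE 0.06) in ducts, a difference of -1.07 (adjusted p = 5.73e-06, limma). Sh2b2, another adaptor, fell by 1.37 (SE 0.12) and 0.97 (SE 0.12).

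Relatives of Kit were above stroma in some cases and below it in others. Of 13 measured genes of related receptors and ligands, 4 rose and 3 fell in each structure, beside 23.2% and 20.4% of all probes in terminal end buds and 16% and 12.2% in ducts. In ducts 1 rather than 4 rose without duct replicate 2 or 5. Like Kit, Pdgfrb, a receptor of fibroblasts and pericytes, rose in both, by 1.38 (SE 0.06) in terminal end buds and 0.59 (SE 0.06) in ducts. Il34, a ligand of the macrophage receptor Csf1r, rose by 1.08 (SE 0.10) and 0.35 (SE 0.10), the latter lost without duct replicate 1, 2 or 5 (0.28 to 0.33, adjusted p = 0.0582 to 0.0867). Its difference was 0.74 (SE 0.15, adjusted p = 0.00278). Kdr, the VEGF receptor of endothelium, fell by 1.47 (SE 0.09) and 0.62 (SE 0.09), and its difference of -0.86 lost its call under quantile normalization (-0.43, adjusted p = 0.0927). Flt1, the other VEGF receptor, fell by 1.19 (SE 0.14) and 0.50 (SE 0.14), the latter lost without duct replicate 1 or 2. The ligand Pdgfd fell by 0.49 (SE 0.11) and 0.62 (SE 0.11). Pdgfc rose by 0.68 (SE 0.21) in ducts, a call lost without duct replicate 2, 3, 5 or 6 (0.65 to 0.68), and was at -0.05 in terminal end buds, where replicate 3 stood at -1.71 and the mean without it was 0.28 (adjusted p = 0.0026).

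Genes that bear on the release of Kit ligand from the membrane were measured for 7 of 7 listed symbols other than Cma1. In terminal end buds 3 rose and 2 fell, and in ducts 1 rose and 0 fell, at an unadjusted p under 0.05 too (limma). Of all probes, 23.2% rose and 20.4% fell in terminal end buds, and 16% and 12.2% did so in ducts. Timp3, an inhibitor of membrane sheddases, fell by 1.58 (SE 0.09) in terminal end buds and was at 0.12 in ducts, a difference of -1.70 (adjusted p = 1.77e-06, limma). The protease Adam10 rose by 0.47 (SE 0.11) and 1.17 (SE 0.11), but the difference of -0.71 (adjusted p = 0.00557) was not called with the mean of its probes (-0.30, adjusted p = 0.207), since its other probe gave 0.12 (adjusted p = 0.686). Adam33, which can cleave Kit ligand, fell by 0.51 (SE 0.09) in terminal end buds and was at 0.01 in ducts. The related proteases Adam19 and Adam8 rose by 0.44 (SE 0.06) and 0.33 (SE 0.07) in terminal end buds and were at 0.09 and 0.13 in ducts. The remaining listed genes, Adam17 (-0.14 and 0.04) and Mmp9 (-0.11 and -0.08), were called in neither structure.

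Factors that grow or attract mast cells had no common direction. Of 18 measured genes, 6 rose in terminal end buds while 4 fell, and 2 rose and 2 fell in ducts against stroma, while terminal end buds exceeded ducts in 4 and ducts exceeded them in 3 (limma). Against stroma, all probes had 23.2% higher and 20.4% lower in terminal end buds and 16% and 12.2% in ducts. The counts against stroma lay near these shares, with the 6 of 18 that rose in terminal end buds the farthest above. Between the structures, 8.32% of all probes were higher in terminal end buds and 10.4% in ducts, and the 4 and 3 of 18 lay above these. With 1 array left out, the 4 became 2 to 4. Il33, an alarm cytokine that acts on mast cells, was the highest of them against stroma in terminal end buds at 2.30 (SE 0.19) and rose by 1.03 (SE 0.19) in ducts. Its difference of 1.27 (SE 0.27, adjusted p = 0.00394) was opposite in sign to that of Kitl, and under quantile normalization its adjusted p was 0.0539. Cx3cl1, a membrane-bound chemokine, rose by 1.29 (SE 0.15) and 1.55 (SE 0.15).

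Tgfb1, a growth factor that attracts mast cells, rose by 0.51 (SE 0.08) in terminal end buds and was at 0.05 in ducts (difference 0.47, adjusted p = 0.0081). Cxcl12, a stromal chemokine, fell by 1.10 (SE 0.10) in terminal end buds and by 0.28 (SE 0.10, adjusted p = 0.0442) in ducts, with a difference of -0.82 (SE 0.14, adjusted p = 0.000778). The call in ducts was lost without duct replicate 1, 2, 5 or 6 or terminal end bud replicate 5 or 6 (-0.30 to -0.19, adjusted p = 0.053 to 0.154). Vegfa, a growth factor of vessels that mast cells also follow, fell by 1.49 (SE 0.10) and 0.63 (SE 0.10), and its difference of -0.86 lost its call under quantile normalization (-0.38, adjusted p = 0.179). Il3, a growth factor of mast cells, fell by 0.78 (SE 0.14) in terminal end buds and was at -0.38 in ducts (adjusted p = 0.0646).

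**Figure D4:**
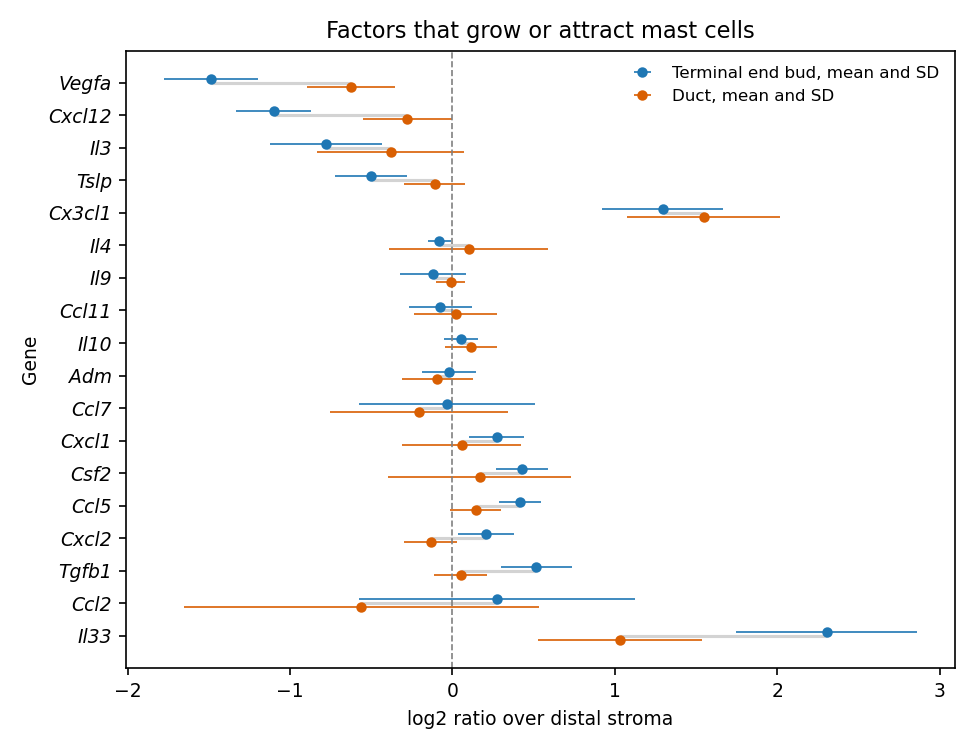
Mean and SD (n = 6 arrays) of the log2 ratio over distal stroma (horizontal axis) for 18 factors that grow or attract mast cells (vertical axis), terminal end buds in blue and ducts in orange, ordered by the difference between them. Il33 lies to the right with terminal end buds higher, and Vegfa and Cxcl12 lie to the left with terminal end buds lower.

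Receptors, enzymes and inhibitors that mast cell products meet were below stroma in part. Of 20 measured genes, 1 rose in terminal end buds while 8 fell, and 4 rose and 1 fell in ducts, with 2 rather than 4 rising in ducts without duct replicate 1, 2 or 5. The background was 23.2% of probes rising against 20.4% falling for terminal end buds, with 16% and 12.2% for ducts, so the 4 that rose in ducts were near the background, and the 8 that fell in terminal end buds were above it. Hnmt, which inactivates histamine inside cells, fell by 0.62 (SE 0.10, adjusted p = 0.000154) in terminal end buds and was at -0.23 in ducts. Aoc1, the secreted histamine oxidase, rose by 0.83 (SE 0.20, adjusted p = 0.00591) in ducts. Of the histamine receptors, Hrh2 was below stroma in both structures, at -0.51 and -0.41 (adjusted p = 0.000855 and 0.00868), and Hrh4 was at -0.23 in terminal end buds (adjusted p = 0.0259), a call lost without replicate 3 or 4 of that group. Hrh1, at 0.18 in terminal end buds and -0.12 in ducts, and Hrh3, at 0.07 and -0.09, were called in neither structure. These receptors are named after their values were seen.

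Ace, which makes angiotensin II as mast cell chymase does, fell by 0.85 (SE 0.10) in terminal end buds and rose by 0.35 (SE 0.10) in ducts, where without duct replicate 4 it was at 0.30 (adjusted p = 0.0524). The difference was -1.20 (SE 0.14, adjusted p = 5.29e-05, limma). Serping1, an inhibitor of complement and kinin proteases, fell by 1.37 (SE 0.20) in terminal end buds and was at -0.15 in ducts. Serpina3n, a protease inhibitor, and Agt, the angiotensin precursor, fell by 1.07 (SE 0.19) and 0.95 (SE 0.18) in terminal end buds and were at -0.28 and -0.50 in ducts, the latter close to the threshold (adjusted p = 0.0523).

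Markers of other cells that carry Kit or lie near mast cells were read beside these values. For every marker list, here and in the paragraphs below, the shares of all probes against stroma are the measure for the counts. They were 23.2% rising and 20.4% falling in terminal end buds, and 16% and 12.2% in ducts. None of 8 melanocyte genes passed the threshold in either structure with limma, among them Pmel at -0.02 and 0.05 and Dct at 0.19 and 0.21. In terminal end buds Dct passed without replicate 2 (0.25, adjusted p = 0.026). It also passed there with slides as a term (0.19, adjusted p = 0.0482) and on slides from 196 on alone (0.30, adjusted p = 0.0344). In ducts Dct passed under 7 alternatives (adjusted p = 0.0192 to 0.0478). At an unadjusted p under 0.05, 1 rose in terminal end buds and 2 in ducts. The list's medians were -0.01 and 0.03. Of 12 luminal progenitor genes, 9 rose in terminal end buds and 10 in ducts, with Elf5 at 2.18 and 2.73, Prom1 at 1.86 and 1.97 and Ltf at 1.76 and 3.44. Csn3, a milk protein gene, was at 4.38 and 6.25 (difference adjusted p = 0.00216), while its other probe gave 0.22 and 0.67, and Sox9 and Ehf were at 1.40 and 1.198 and at 1.13 and 1.33. The difference of Elf5 (-0.55, adjusted p = 0.311) was called with a common spread of the arrays (-1.01, adjusted p = 0.0124).

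Vessel and fat markers stood lower in the end buds than in ducts, as did Kitl and the proteases. Of 7 endothelial genes, 7 fell in terminal end buds and 5 in ducts, with array medians of -1.58 to -1.17 and -0.59 to -0.16. Pecam1 was at -1.70 and -0.46 (difference adjusted p = 4.07e-05, limma), Cdh5 at -1.41 and -0.45, Tie1 at -1.36 and -0.33, Tek at -1.27 and -0.35 and Cd34 at -1.06 and 0.25, with ducts higher in each. The calls in ducts were lost without duct replicate 2 for Tie1 and without duct replicate 4 or 6 for Tek. Of 6 adipocyte genes 6 and 2 fell, with array medians of -1.66 to -1.07 and -0.52 to -0.28, with Fabp4 at -2.13 and -0.82, Pparg at -1.71 and -1.02, Lep at -1.25 and -0.31, Cidec at -1.21 and -0.36, Lpl at -1.21 and -0.40 and Adipoq at -0.46 and -0.21. The difference depended on scaling, and under quantile normalization those of Fabp4 (-0.67, adjusted p = 0.229), Pparg (-0.04, adjusted p = 0.925) and Lep (-0.59, adjusted p = 0.076) were not called. Both lists had medians below stroma in ducts too, where Kitl, Cpa3 and Tpsb2 lay above it. Of 5 pericyte genes 2 rose in terminal end buds while 3 fell, and in ducts 2 rose and 1 fell. Pdgfrb was higher in terminal end buds, at 1.38, than in ducts, at 0.59 (difference 0.79, adjusted p = 1.71e-05, limma). Abcc9 was at -1.26 and, in ducts, -0.21, Cspg4 at -1.02 and -0.55, Rgs5 at -0.54 and -0.11 and Notch3 at 0.56 and 0.56. The other probe of Rgs5 gave -2.71 and -0.30, a difference of -2.41 (adjusted p = 6.72e-07, limma), so the size for this gene depends on the probe. The pair Kitl and Pecam1 was picked after its values were seen. Within ducts it correlated at r = 0.93 (rho = 0.83, n = 6), and in terminal end buds at r = -0.24 (rho = -0.31, n = 6). Without the 2 arrays farthest from the Kitl median, r was 0.73 in ducts and -0.51 in terminal end buds. Kitl also correlated with Krt14 at r = 0.59 in ducts and 0.01 in terminal end buds, and with Mcpt2 at 0.36 and -0.22. The part of these vessel, fat and pericyte markers in the result was not tested.

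Basal markers were above stroma in ducts, and fibroblast markers were so in part. All 6 basal genes rose in ducts, with array medians of 2.09 to 3.002, against 1.59 to 2.03 in terminal end buds, where 5 rose. Krt14 was at 1.502 and 2.79 (difference adjusted p = 0.000942), Tagln at 1.44 and 2.72, Mylk at -0.05 and 0.96, Acta2 at 2.598 and 3.24, Krt5 at 2.53 and 2.51 and Krt17 at 1.93 and 2.32. Of 6 fibroblast genes 3 rose in ducts and 1 in terminal end buds, with array medians of 0.09 to 1.28 and -0.23 to 0.42. Col3a1 was at -0.19 and 1.04 (difference adjusted p = 0.00328), and Col1a1 at 1.47 and 0.77, the latter 0.60 without duct replicate 2 (adjusted p = 0.0527). Dcn was at 0.01 and 0.60. The highest duct array of the fibroblast list was replicate 2, while the proteases were highest in replicate 5. Their part in the result was not tested.

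Other immune markers were mixed. Of 7 eosinophil and basophil genes, 2 rose in terminal end buds and 0 in ducts, where 0 also passed an unadjusted p under 0.05 in limma. Mcpt8, a protease of basophils and not of mast cells, went the opposite way to Cpa3, at 0.96 (SE 0.19) in terminal end buds and -0.06 in ducts (difference 1.02, adjusted p = 0.0171), and the eosinophil protein gene Prg2 was at 0.62 and 0.20. Of 6 macrophage genes 2 fell and 1 rose in terminal end buds, with Cd163 at -0.94 and, in ducts, -0.47 and Cd14 at 0.80 and 0.81. Mrc1 was lower in terminal end buds, at -1.70, than in ducts, at -0.38, with ranges that did not overlap (difference adjusted p = 0.00049). Array medians of the macrophage list ran from -0.77 to -0.07 and from -0.55 to 0.14, and those of 7 lymphocyte genes from -0.08 to 0.06 and from -0.14 to 0.08. The B cell gene Cd79b stood apart from its list at 1.82 and 0.34 (difference 1.47, adjusted p = 3.69e-05), while Cd79a was at -0.17 and -0.14 and Cd4 at -0.32 and -0.31. Luminal markers, which show the dissected epithelium, had array medians of 4.70 to 5.62 and 4.04 to 4.89, with Krt18 at 5.19 and 4.98, Epcam at 4.43 and 4.48 and Krt7 at 3.28 and 2.601. Krt8 at 6.16 and 4.96 and Krt19 at 5.41 and 3.72 were higher in terminal end buds (difference adjusted p = 9.92e-05 and 0.00022), which was not called with a common spread of the arrays (0.14, adjusted p = 0.816, and 0.78, adjusted p = 0.319).

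**Figure D5:**
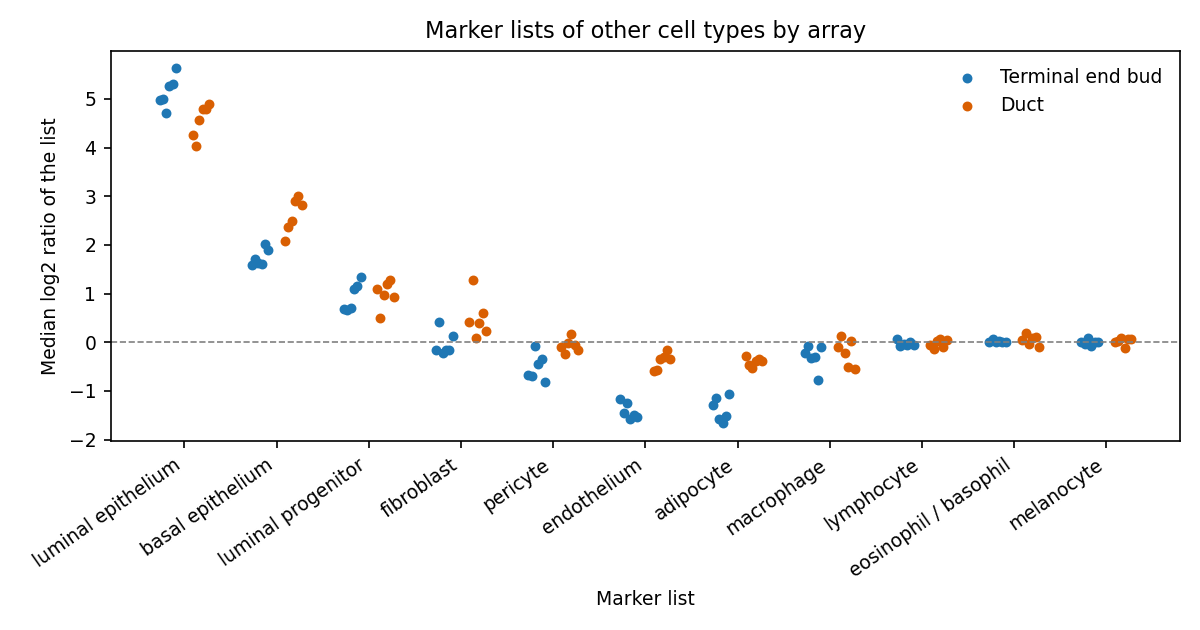
Median log2 ratio over distal stroma (vertical axis) of each marker list (horizontal axis), with a point for each of the 6 terminal end bud (blue) and 6 duct (orange) arrays. Endothelial and adipocyte lists lie below 0 in both structures and lower in terminal end buds, and lymphocyte, eosinophil and melanocyte lists lie close to 0.

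The genes with the profile nearest to each member were found by the root mean square difference of log2 ratios over the 12 arrays. For Kitl these were Ktn1 at 0.42, Zfp979 at 0.43 and Cpa3 at 0.47. For Cpa3 they were Osmr at 0.32, Nt5e at 0.37 and Mcpt2 at 0.39. For Kit they were Rps10 at 0.23, Fn1 at 0.24 and Dstn at 0.30. Over all 12 arrays this distance mostly reflects the gap between the groups, on which the members were chosen, so it is a description only.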

How the data were processed

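The deposited values are log ratios of 2-colour arrays, read as log2 although no source names the base, with epithelium in Cy5 and distal stroma in Cy3 on all 12 arrays per the labels, and no dye swap. With the dyes fixed, a dye effect of a probe cannot be told apart from a difference between epithelium and stroma. Both structures were in the same dye. Background and dye correction: not given in the sources used here. All values were used as deposited. Stroma served only as the reference on each array and has no arrays of its own. How far its variation enters the spread between arrays is not known, as the labels do not say whether it was pooled.

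Probes were named from the platform's annotation: of 17589 probes, 14136 had 1 symbol, 13 several and 3440 none, and 129 lacked a value on some array. A gene's first probe with the most values stood for it. limma 3.58.1 (R 4.3.3) was fitted to all 12 arrays with lmFit and eBayes, with Benjamini-Hochberg adjustment across every probe and 0.05 as the threshold. The fit was tested on simulated data. Over all probes the lowest correlation between any pair of arrays was 0.431, and the number of arrays limits the precision.

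The genes described and the 17 gene lists were chosen with earlier results of these data known. Named are all members, up to 6 genes of each list with the largest called values, fixed markers, and the 3 genes nearest to members whose mean is at least 1 in size. Adam17, Mmp9, Hrh1, Hrh2, Hrh3 and Hrh4 are named beyond this rule. A difference between the structures that no setting called is not given, except beside Tpsb2. Alternatives were centring, quantile normalization, a common median absolute deviation, slides as a term, array weights, each group alone, complete probes, the mean of a gene's probes and leaving out each array. Slides up to 193 and from 196 on, each alone, were chosen after seeing the data.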

Additional observations from a re-analysis of the deposited data

Results flagged for a closer look

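Among 88 genes in 2 groups of 6 arrays, 10 of 176 groups had an array far from the rest by Dixon's test, which chance gives in about 1 of 20 groups. Among mast cell genes, Mitf in duct replicate 4 was at 0.286, with the others at 0.053 to 0.138, and Fcer1a in terminal end bud replicate 3 was at -0.59, with the others at -0.249 to -0.076. In duct replicate 5, Pdgfrb was at 0.871, with the others at 0.427 to 0.586, and Mylk at 0.504, with the others at 0.978 to 1.215. In duct replicate 2, Lep was at 0.251, with the others at -0.554 to -0.273, and Dcn at 1.756, with the others at 0.057 to 0.527. Cd163 in duct replicate 4 was at -1.497, with the others at -0.575 to -0.133. Mylk in terminal end bud replicate 1 was at 0.095, with the others at -0.134 to -0.051. In terminal end bud replicate 3, Pdgfc was at -1.706, with the others at 0.19 to 0.424, and Cd79a at -0.321, with the others at -0.15 to -0.115.

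Of the genes named beside the members, 84 were checked, and in 43 of them the structures differed by limma's test. Of all probes, 8.32% were higher in terminal end buds and 10.4% in ducts. Most of these genes were named for their large called values, so the count is raised by the choice. Terminal end buds were higher in Krt19 by 1.69, Cd79b by 1.47, Il33 by 1.27, Krt8 by 1.1975, Mcpt8 by 1.02, Src by 0.88, Pdgfrb by 0.79, Il34 by 0.74, Sh2b3 by 0.70, Tgfb1 by 0.47, Adam19 by 0.35 and Mitf by 0.29. Ducts were higher among mast cell genes in Tph1 (-1.56, terminal end buds minus ducts), Mcpt2 (-0.71) and Srgn (-0.66). Ducts were also higher in Pik3r1 (-1.07), Kdr (-0.86), Flt1 (-0.69), Timp3 (-1.70), Adam10 (-0.71; its other probe gave 0.12), Adam33 (-0.52), Vegfa (-0.86), Cxcl12 (-0.82), Serping1 (-1.22) and Ace (-1.20).

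Among the markers of other cells, ducts were higher in the epithelial Csn3 (-1.87), Ltf (-1.68), Krt14 (-1.28), Tagln (-1.27) and Mylk (-1.02). They were higher in the vessel genes Cd34 (-1.31), Pecam1 (-1.24), Tie1 (-1.02), Cdh5 (-0.96) and Tek (-0.92) and the pericyte genes Abcc9 (-1.05), Cspg4 (-0.48) and Rgs5 (-0.43, while its other probe gave -2.41). They were also higher in the fat genes Fabp4 (-1.31), Lep (-0.94) and Pparg (-0.69), in Col3a1 (-1.22) and in Mrc1 (-1.32). Under quantile normalization the differences of Il33, Adam19, Mitf, Kdr, Flt1, Vegfa, Srgn, Fabp4, Lep, Pparg, Cspg4 and Rgs5 were smaller and not called. The cause of these differences was not tested.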

How the results depend on the processing

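The difference between the structures kept its direction in Kitl (-1.87 to -1.63, terminal end buds minus ducts), Cpa3 (-1.50 to -1.24) and Tpsb2 (-0.86 to -0.37) under the 20 alternatives run for each. That of Kit turned to -0.10 under quantile normalization and was 0.023 with a common median absolute deviation, and the cause was not tested. The Kit mean in terminal end buds was 1.47 under quantile normalization. On slides up to 193 alone the Kitl mean in ducts was 1.02 and the Tpsb2 difference -0.37, with 2 arrays a group.

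Of 4737 alternative values for the 84 genes checked beside the members, 4448 kept their direction and side of the threshold. A call was lost in 148 and gained in 107, and 34 changed sign. Of the lost calls, 66 were on the early or late slides alone, with fewer arrays, 57 without 1 array, 13 under quantile normalization and 8 with a common median absolute deviation. Of the 34 sign changes, 1 had a call in either setting, Pdgfc in terminal end buds without replicate 3 (0.28). In terminal end buds against stroma, Pdgfc was also 0.067 with array weights, 0.023 under quantile normalization and 0.32 on slides up to 193. On those slides alone, Pmel (0.036) and Dct (-0.024) changed sign there. Dcn did so with centring (-0.0062) and on slides from 196 on (-0.12). Leaving out 1 array gave ranges that crossed 0 for Dcn (-0.10 to 0.067), Pdgfc (-0.14 to 0.28), Ms4a2 (-0.059 to 0.0084) and Pmel (-0.041 to 0.004).

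In ducts against stroma, centring gave Adam33 -0.0072 and Ms4a2 -0.011, and a common median absolute deviation -0.00084 and -0.011. On slides up to 193 alone the values were Hnmt 0.044, Hrh4 0.016, Mcpt8 0.063, Ms4a2 -0.035, Serpina3n 0.031, Serping1 0.16 and Tgfb1 -0.11, and on later slides alone Adam19 -0.001, Gata2 0.048 and Pmel -0.028. Leaving out 1 array gave ranges that crossed 0 for Adam33 (-0.0092 to 0.034), Gata2 (-0.11 to 0.026) and Ms4a2 (-0.011 to 0.025). Between the structures Sh2b2 was 0.22 under quantile normalization, and on slides up to 193 Sh2b2 was 0.16, Acta2 0.076 and Tpsab1 0.14. None of these had a call except Pdgfc as given.

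Over all alternatives, probes higher in terminal end buds than in ducts numbered 979 to 1584 and lower ones 1259 to 1984. No paired analysis was possible because the labels give slide numbers and no replicate numbers shared between the groups. Signal over background was not used here, so dim probes could not be told from probes of equal signal.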
